A study of Mus musculus with 37 samples.

Results

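The adenylyl cyclases make the second messenger cyclic AMP, and the cyclic nucleotide phosphodiesterases break down cyclic AMP and cyclic GMP. All genes of both families were taken whose annotated symbol is Adcy followed by a number or Pde followed by a family number from 1 to 11 and a subtype letter. This gave 33 genes, 10 adenylyl cyclases and 23 phosphodiesterases, of the 18193 genes that had a probe set with 1 symbol. Together they had 80 probe sets, and each gene is represented by its brightest probe set, judged by the mean of all 37 arrays. The choice of genes used symbols only. RNA of the cortex was measured in mice at 9 wk of age, 1 Affymetrix mouse whole-genome array per mouse, in 4 genotypes. Dble::R6/2 mice (10 arrays, 5 female and 5 male) carry the R6/2 transgene and 1 null allele of Hdac4. R6/2 mice (9 arrays, 4 female and 5 male) carry the transgene, which expresses a mutant exon 1 fragment of human huntingtin, and have both Hdac4 alleles. Hdac4HET mice (9 arrays, 4 female and 5 male) carry 1 null allele of Hdac4 and no transgene, and WT mice (9 arrays, 4 female and 5 male) carry neither. All 4 genotypes shared a mixed CBA and C57BL/6 background. The Hdac4 null allele came from 129S cells, so 129S sequence around Hdac4 travels with it, and the R6/2 mouse models huntingtin only as this fragment.

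Cyclic AMP activates protein kinase A, exchange factors for small G proteins and cyclic nucleotide-gated channels, and in the nucleus the kinase phosphorylates the transcription factor CREB. Membrane adenylyl cyclases are driven by stimulatory G proteins and differ in how calcium and G protein beta-gamma subunits act on them, while phosphodiesterases differ in which nucleotide they cleave. In the forebrain several members mark cell types, with Adcy5, Pde10a, Pde1b and Pde7b abundant in the medium spiny neurons of the striatum and Adcy1 in neurons of the cortex and hippocampus.

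The values are log2 expression values as deposited, so a difference of 1 is a doubling. Array medians lay between 6.16 and 6.21, and arrays of 1 genotype correlated at 0.993 to 0.998 over all probe sets, with no identical pair. Hdac4 followed its genotype, at 7.70 to 7.98 in Dble::R6/2 against 8.31 to 8.55 in R6/2 cortex, and at 7.80 to 8.02 in Hdac4HET against 8.28 to 8.64 in WT cortex. On 7 arrays, 6 of Hdac4HET and Dble::R6/2 replicate 10, the mean of 14 olfactory bulb markers was above that of every WT array, and on 6 arrays the sex-linked genes went against the labelled sex. The markers of cortical excitatory neurons were bright in all genotypes, with array means of 9.60 to 9.84 in R6/2 and 9.89 to 10.03 in WT mice. Of 4 members, Pde3a, Pde6a, Pde6c and Pde6h, even the brightest probe set lay in the lowest 25% of all probe sets, below 4.47, so little can be read from their values.

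R6/2 cortex had less RNA of Adcy1, Adcy9, Pde10a and Pde7b than WT cortex, by 0.39 to 0.41 on the log2 scale. Adcy1 encodes a cyclase stimulated by calcium and calmodulin, and Adcy9 a widely expressed cyclase that is little affected by forskolin. Pde10a encodes a phosphodiesterase that cleaves both nucleotides, and Pde7b one specific for cyclic AMP. A gene was called when it had an adjusted p in limma under 0.05 together with a change of over 1.3-fold. By this rule 4 of 33 members were lower and none was higher, against 3.3% of all genes lower and 3.75% higher. On adjusted p alone, 13 members were lower and 5 higher, against 18.4% and 28.1% of all genes. The median change of the members was −0.11, and that of all genes was 0.00.

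Adcy9 had log2 levels of 9.87, 9.96 and 10.08 (lowest, median and highest) in R6/2 mice, against 10.25, 10.33 and 10.50 in WT mice. Pde7b had 9.50, 9.81 and 9.90 in R6/2 mice, against 9.93, 10.16 and 10.27 in WT mice. Adcy1 had 11.45, 11.76 and 11.96 in R6/2 mice, against 12.02, 12.13 and 12.26 in WT mice. For these 3 genes every R6/2 array lay below every WT array. That held for 3 of 33 members, against 3.84% of all genes. Adcy9 averaged 9.97 ± 0.07 in R6/2 and 10.36 ± 0.08 in WT mice (SD, n = 9 each), a change of −0.39 (SE 0.04, limma adjusted p = 2.01e-10). Pde7b averaged 9.74 ± 0.15 in R6/2 and 10.14 ± 0.10 in WT mice, a change of −0.40 (SE 0.05, adjusted p = 7.75e-08). Adcy1 averaged 11.74 ± 0.15 in R6/2 and 12.13 ± 0.07 in WT mice, a change of −0.39 (SE 0.06, adjusted p = 3.8e-07).

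Pde10a was more variable. Its levels were 9.84, 10.04 and 10.28 in R6/2 mice, against 9.95, 10.54 and 10.99 in WT mice. The groups overlapped, and only 2 of 9 R6/2 arrays lay below every WT array. The change was −0.41 (SE 0.09, 95% interval −0.60 to −0.22, limma adjusted p = 0.000611). All 4 changes stood close to the fold threshold, so single arrays decided some calls. Adcy1 was not called without WT replicate 4 or 9 or R6/2 replicate 6 or 7 (change −0.41 to −0.35 over all arrays left out in turn), Adcy9 without WT replicate 4 or 6 or R6/2 replicate 7 (−0.40 to −0.37), Pde10a without WT replicate 2 or 5 (−0.48 to −0.35) and Pde7b without R6/2 replicate 8 or 9 (−0.43 to −0.37). The number of members called was 2 without WT replicate 4 or R6/2 replicate 7, and 5, with Pde1b, without WT replicate 1.

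**Figure D1:**
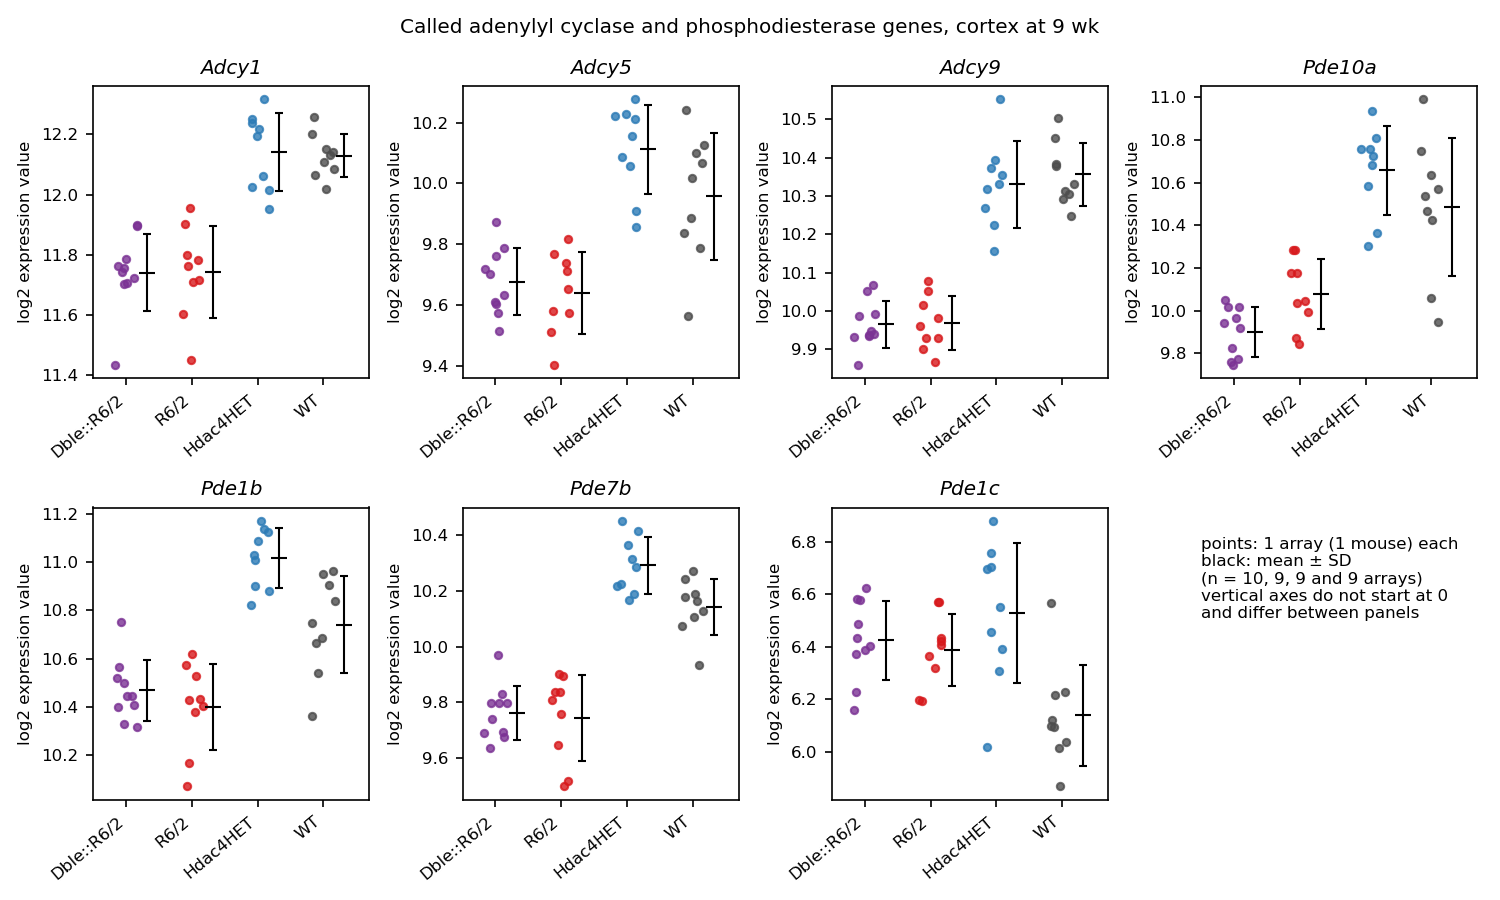
Log2 expression value of the 7 members called in at least 1 comparison, each on its own vertical axis that does not start at 0, with genotypes in the order Dble::R6/2, R6/2, Hdac4HET and WT. Each point is 1 array and the black marks are the mean ± SD; for Adcy9 all Dble::R6/2 and R6/2 points lie below all Hdac4HET and WT points.

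The other members are described by how their products act. Among the calcium-stimulated cyclases, Adcy3, the cyclase of olfactory neurons and neuronal cilia, rose in R6/2 mice (0.20, SE 0.04, limma adjusted p = 3.18e-05). It averaged 9.23 ± 0.06 in R6/2 and 9.03 ± 0.08 in WT mice (SD, n = 9 each), and 7 of 9 R6/2 arrays lay above every WT array. Adcy8, stimulated by calcium and calmodulin, had a change of 0.11 (adjusted p = 0.0938). Of the cyclases that respond to beta-gamma subunits, Adcy2 fell (−0.19, SE 0.04, adjusted p = 0.000208), and Adcy4 and Adcy7 had changes of −0.05 and −0.09 that did not pass. The cyclases inhibited by calcium moved in opposite directions. Adcy5, the main cyclase of striatal neurons, fell by 0.32 (SE 0.07, adjusted p = 0.000247), while Adcy6 rose by 0.09 (SE 0.04, adjusted p = 0.0384). Adcy10, the soluble cyclase activated by bicarbonate, had a change of −0.06 (adjusted p = 0.341).

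On adjusted p alone, 18.4% of all genes fell and 28.1% rose in R6/2 against WT mice. Of 7 phosphodiesterases specific for cyclic AMP, 4 fell and 1 rose. Besides Pde7b these were Pde8a (−0.28, adjusted p = 0.000459), Pde8b (−0.22, SE 0.04, adjusted p = 7.09e-06) and Pde4a (−0.20, adjusted p = 0.000168), with Pde4d the one that rose (0.16, SE 0.04, adjusted p = 0.00118). Pde8b averaged 9.80 ± 0.08 in R6/2 and 10.02 ± 0.06 in WT mice, with 8 of 9 R6/2 arrays below every WT array. The PDE4 enzymes are the targets of rolipram, and the PDE8 enzymes have a very high affinity for cyclic AMP. Pde4b (0.01) and Pde7a (−0.07) did not pass. However, 1 of 6 Pde4b probe sets (−0.15 to 0.05) and 1 of 7 of Pde7a (−0.17 to 0.07) were lower past the adjusted p. Of 8 enzymes that cleave both nucleotides, 3 fell and 1 rose in limma. Pde1b, a calmodulin-dependent enzyme abundant in the striatum, fell by 0.34 (SE 0.07, adjusted p = 0.000177), and Pde2a, which cyclic GMP stimulates, fell by 0.11 (SE 0.04, adjusted p = 0.0254). Pde1c, a second calmodulin-dependent enzyme, rose by 0.25 (SE 0.09, adjusted p = 0.0223). This rested on 1 of its 6 probe sets, which lay between −0.14 and 0.25, 4 of them below 0. Pde1a had a change of −0.19 (adjusted p = 0.103), Pde3a, Pde3b and Pde11a had changes of −0.08, 0.07 and −0.13, and none of these 4 passed.

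Of the enzymes specific for cyclic GMP, Pde9a fell by 0.20 (SE 0.06, adjusted p = 0.00779) and Pde5a, the target of sildenafil, had a change of 0.03 (adjusted p = 0.769). The photoreceptor PDE6 subunits were 6 members. Pde6d, a carrier of prenylated proteins that is expressed outside the retina too, rose by 0.14 (SE 0.03, adjusted p = 0.0012), and the dim Pde6h fell by 0.17 (SE 0.05, adjusted p = 0.00866). Pde6a, Pde6b, Pde6c and Pde6g had changes of −0.13, −0.11, 0.10 and −0.12 that did not pass. The other Pde6g probe set, at −0.20, was lower past the adjusted p. Photoreceptor markers were low throughout, with array means of 4.35 to 4.64.

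**Figure D2:**
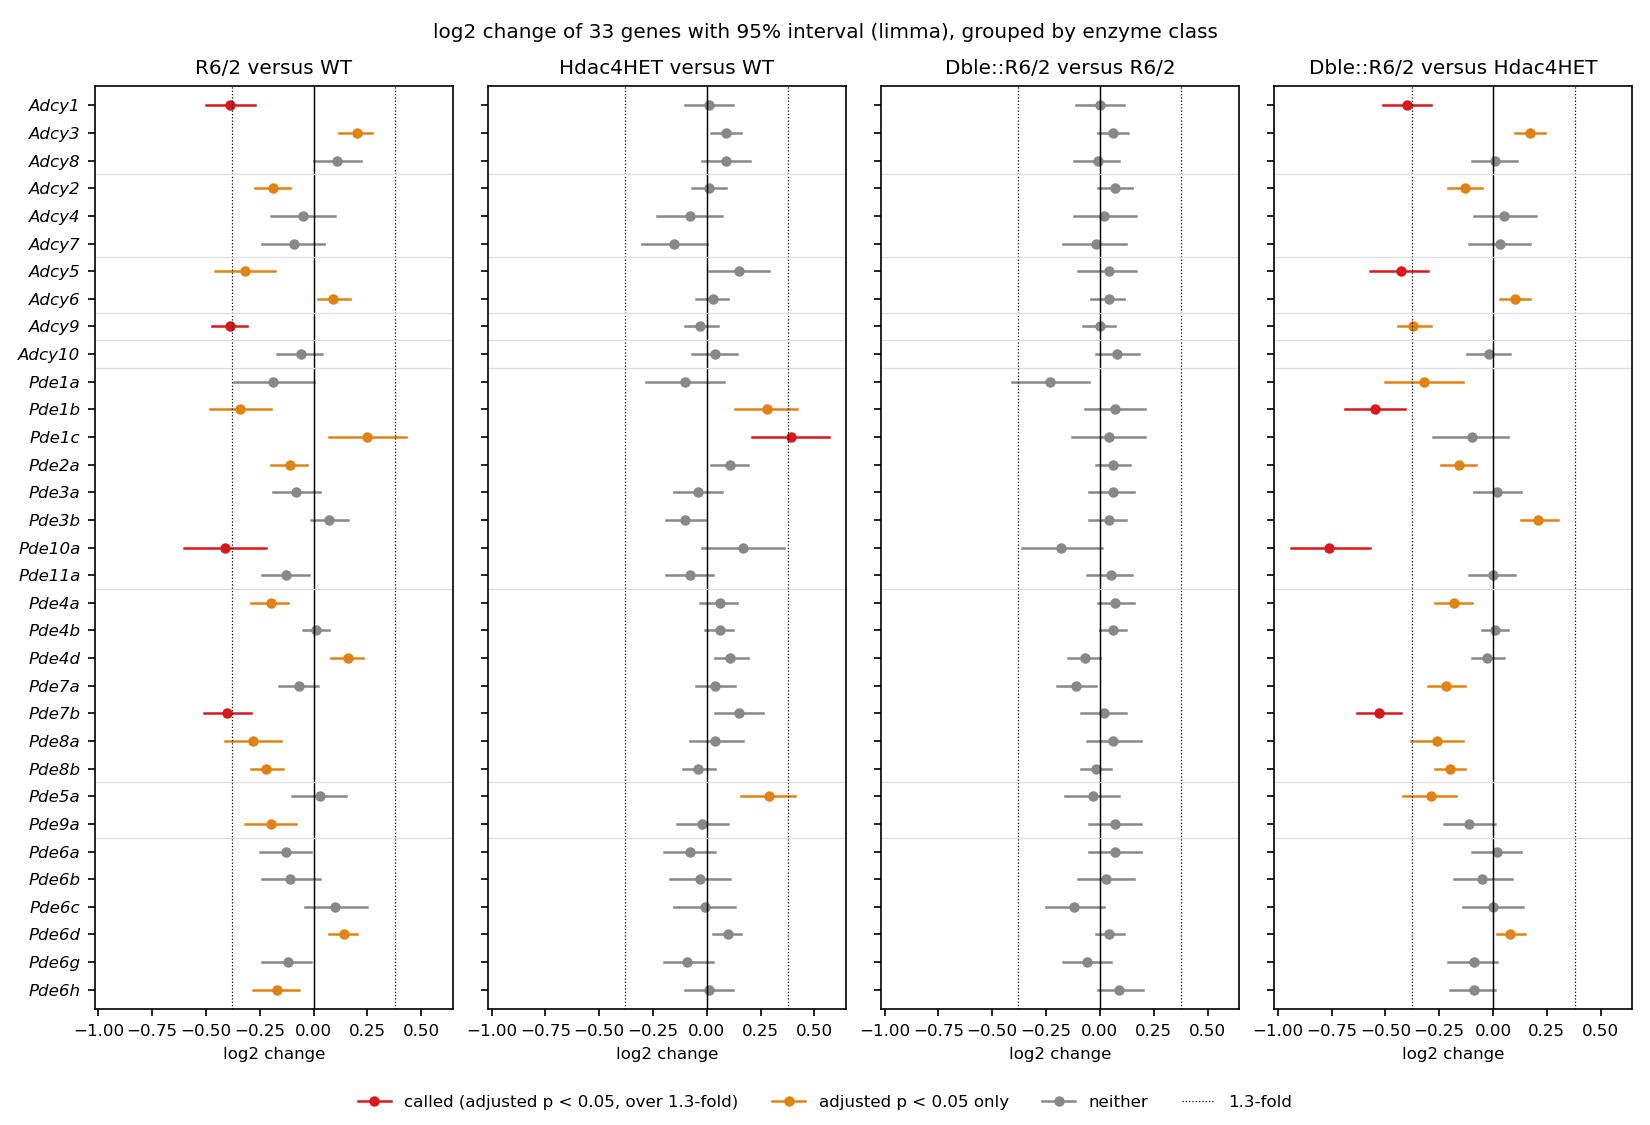
Log2 change of all 33 members in 4 comparisons, grouped by the way their products act, with 95% intervals from limma; red marks a called gene, orange adjusted p under 0.05 alone and grey neither, and dotted lines mark 1.3-fold. Calls lie to the left of 0 wherever the transgene is compared and no member is called for Dble::R6/2 against R6/2.

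Sequences just before the transcription start are given for the 4 genes called lower in R6/2 mice, to show whether they hold a half-site of the cyclic AMP response element, to which CREB binds, or a GC box. They are the 250 bases before the start, 5′ to 3′ on the strand of the gene, from RefSeq (build GRCm38.p6). Adcy1 is at chr11:7063183-7063432 (+), Adcy9 at chr16:4420499-4420748 (−), Pde10a at chr17:8801495-8801744 (+) and Pde7b at chr10:20548329-20548578 (−). Capitals mark this half-site TGACG and the GC box GGGCGG on either strand.
Adcy1: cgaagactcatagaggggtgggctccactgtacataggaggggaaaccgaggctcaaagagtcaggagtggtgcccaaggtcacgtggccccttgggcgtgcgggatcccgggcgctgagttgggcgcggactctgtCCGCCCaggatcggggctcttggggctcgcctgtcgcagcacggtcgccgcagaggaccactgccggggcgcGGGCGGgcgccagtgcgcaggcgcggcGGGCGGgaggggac
Adcy9: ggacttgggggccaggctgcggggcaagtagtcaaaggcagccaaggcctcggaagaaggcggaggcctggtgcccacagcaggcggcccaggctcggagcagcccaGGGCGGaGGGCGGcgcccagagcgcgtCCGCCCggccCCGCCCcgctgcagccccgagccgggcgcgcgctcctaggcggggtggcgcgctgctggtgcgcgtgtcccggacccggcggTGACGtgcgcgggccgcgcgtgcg
Pde10a: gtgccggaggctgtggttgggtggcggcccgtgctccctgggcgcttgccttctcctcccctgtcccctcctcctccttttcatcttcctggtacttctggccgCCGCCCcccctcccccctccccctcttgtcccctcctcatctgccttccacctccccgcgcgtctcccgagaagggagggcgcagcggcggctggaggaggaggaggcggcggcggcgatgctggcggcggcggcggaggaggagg
Pde7b: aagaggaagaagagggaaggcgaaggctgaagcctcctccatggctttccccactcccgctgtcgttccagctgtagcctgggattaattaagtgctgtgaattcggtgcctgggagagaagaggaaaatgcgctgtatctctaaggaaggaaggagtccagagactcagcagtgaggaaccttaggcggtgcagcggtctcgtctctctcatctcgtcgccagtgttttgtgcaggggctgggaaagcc
The Adcy9 sequence holds 1 half-site, 24 bases before the start, and 4 GC boxes, the Adcy1 sequence 3 GC boxes and the Pde10a sequence 1. The Pde7b sequence holds neither motif. CpG dinucleotides numbered 34 in Adcy9, 26 in Adcy1, 21 in Pde10a and 10 in Pde7b, against a median of 6 over all windows in the table. A second Pde10a start in the table, at chr17:8849735-8849984 (+), had 4 CpG and no motif. The promoter table matched 24 of 33 members, with 48 windows. The half-site occurred in 7 of the 48 (14.6%), 1 each of Adcy7, Adcy9, Pde1a, Pde4a, Pde4b, Pde6h and Pde8a, against 17.8% of all 32851 windows, and the GC box in 16 (33.3%), against 32.7%. The full element TGACGTCA, which contains the half-site, was in 0 of the 48 windows and in 1.55% of all, and the MEF2 motif, the site of the factor that HDAC4 binds, was in 0 and in 2.92%. Motifs were searched on both strands, and a match is a match of letters and not a shown binding site.

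The transgene was also compared on the Hdac4 heterozygous background, in Dble::R6/2 against Hdac4HET mice. These mice did not enter the means compared above. Both comparisons share the estimate of the spread and the choice of probe sets, so they are not fully independent. Adcy1, Adcy5, Pde10a, Pde1b and Pde7b were lower in Dble::R6/2 cortex, by 0.40 to 0.76. By the call rule 5 of 33 members were lower and none was higher, against 4.08% of all genes lower and 2.6% higher. On adjusted p alone, 14 members were lower and 4 higher, against 14.1% and 28.4% of all genes. The members' median was −0.09 and that of all genes 0.04. Of the 18 members past the adjusted p in R6/2 against WT, 14 passed in the same direction here, and Pde1c, Pde4d, Pde6h and Pde9a did not pass.

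Pde10a had levels of 9.75, 9.93 and 10.05 (lowest, median and highest) in Dble::R6/2 mice, against 10.30, 10.73 and 10.94 in Hdac4HET mice. Pde1b had 10.32, 10.45 and 10.75 in Dble::R6/2 mice, against 10.82, 11.03 and 11.17 in Hdac4HET mice. Pde7b had 9.63, 9.77 and 9.97 in Dble::R6/2 mice, against 10.17, 10.29 and 10.45 in Hdac4HET mice. No array of the one genotype reached the other for any of the 3. Pde10a changed by −0.76 (SE 0.09, 95% interval −0.94 to −0.57, limma adjusted p = 1.59e-08), Pde1b by −0.55 (SE 0.07, adjusted p = 3.51e-08) and Pde7b by −0.53 (SE 0.05, adjusted p = 8.26e-11). Adcy1 had levels of 11.44, 11.75 and 11.90 in Dble::R6/2 mice, against 11.95, 12.19 and 12.32 in Hdac4HET mice, a change of −0.40 (SE 0.05, adjusted p = 1.19e-07). Adcy9 had 9.86, 9.94 and 10.07 in Dble::R6/2 mice, against 10.16, 10.33 and 10.55 in Hdac4HET mice, a change of −0.37 (SE 0.04, adjusted p = 4.57e-10) just under 1.3-fold. These 5 genes did not overlap between the genotypes, against 4.29% of all genes. Adcy5 had 9.51, 9.67 and 9.87 in Dble::R6/2 mice, against 9.86, 10.16 and 10.28 in Hdac4HET mice, so that 9 of 10 Dble::R6/2 arrays lay below every Hdac4HET array (−0.43, SE 0.07, adjusted p = 1.57e-06).

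Among the members not called here, Adcy2 (−0.13), Pde1a (−0.32, SE 0.09, adjusted p = 0.00378), Pde2a (−0.16), Pde4a (−0.18), Pde5a (−0.29, SE 0.06, adjusted p = 0.000144), Pde7a (−0.22, adjusted p = 8.58e-05), Pde8a (−0.26) and Pde8b (−0.20) were lower in limma. Adcy3 (0.17), Adcy6 (0.10), Pde3b (0.21, SE 0.04, adjusted p = 6.59e-05) and Pde6d (0.08) were higher. Of the cyclases 4 fell, 2 rose and 4 did not pass, and of the phosphodiesterases 10 fell, 2 rose and 11 did not pass. Among all genes 14.1% fell and 28.4% rose on adjusted p alone. Leaving out each array in turn changed 2 calls. Adcy1 was not called without Hdac4HET replicate 2 or Dble::R6/2 replicate 10 (−0.42 to −0.37 over all arrays left out), and Adcy9 was called without Hdac4HET replicate 6.

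For several genes the other probe sets can be set beside the one used. All 5 Pde10a probe sets were below 0 in both comparisons of the transgene, at −1.21 to −0.46 in Dble::R6/2 against Hdac4HET mice (5 called) and −0.80 to −0.34 in R6/2 against WT mice (4 called). All 3 of Pde7b were lower in both, at −0.68 to −0.47 (3 called) and −0.42 to −0.38 (2 called). All 4 of Adcy9 passed the adjusted p in both, at −0.37 to −0.29 and −0.43 to −0.25. Adcy1 rested on 1 probe set, since its other one had changes of −0.10 (adjusted p = 0.185) in Dble::R6/2 against Hdac4HET and −0.06 (adjusted p = 0.452) in R6/2 against WT mice. Adcy5 had 4 probe sets, and the 3 not used had changes of −0.10 to −0.01 in Dble::R6/2 against Hdac4HET mice. In R6/2 against WT mice its 4 probe sets lay between −0.32 and 0.12, with 2 above 0 and 2 lower past the adjusted p. The dimmer Pde8a probe set was called in both comparisons, at −0.54 and −0.49 (adjusted p = 9.2e-05 and 0.000422). Pde5a disagreed between its 3 probe sets in R6/2 against WT mice, at −0.27 (adjusted p = 0.0069), 0.03 and 0.36 (adjusted p = 0.00346). Of the 33 members 13 had 1 probe set only.

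With the mean of a gene's probe sets in place of the brightest, 4 members were called in Dble::R6/2 against Hdac4HET mice (Pde10a, Pde1b, Pde7b and Pde8a) and 3 in R6/2 against WT mice (Pde10a, Pde7b and Pde8a). Adcy1 was then at −0.25 and −0.22, and Adcy9 at −0.34 and −0.33. Adcy5 was at −0.14 in Dble::R6/2 against Hdac4HET mice and was not called.

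**Figure D3:**
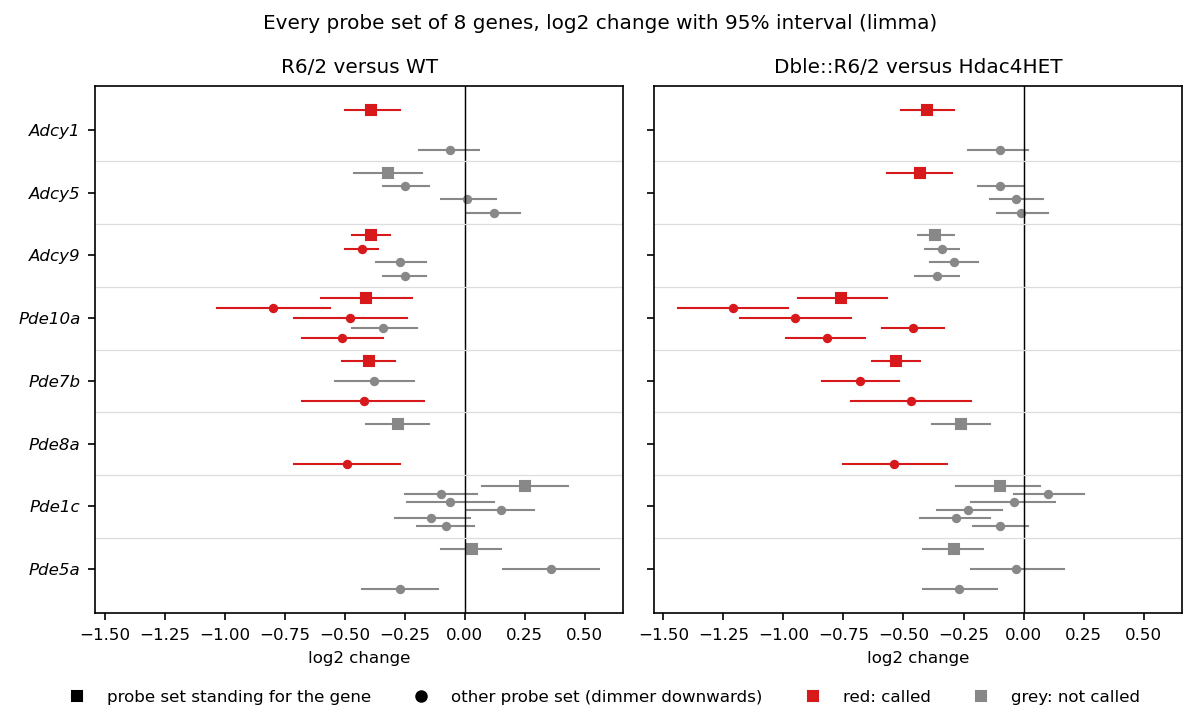
Log2 change of every probe set of 8 members, with 95% intervals from limma, for R6/2 against WT and Dble::R6/2 against Hdac4HET; squares mark the probe set that stands for the gene. All probe sets of Pde10a, Pde7b and Adcy9 lie below 0, while those of Adcy1, Adcy5, Pde1c and Pde5a differ among themselves.

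Between Hdac4HET and WT cortex 3 members passed the adjusted p, all of them phosphodiesterases and all higher in Hdac4HET mice. One, Pde1c, was called, against 0.346% of all genes called higher and 0.022% lower, and on adjusted p alone the shares of all genes were 1.33% and 0.511%. Pde1c had levels of 6.02, 6.55 and 6.88 in Hdac4HET mice, against 5.87, 6.10 and 6.57 in WT mice, with 4 of 9 Hdac4HET arrays above every WT array (0.39, SE 0.09, 95% interval 0.21 to 0.57, limma adjusted p = 0.0175). Another Pde1c probe set rose by 0.40 (adjusted p = 0.00158), and the remaining 4 lay between −0.12 and 0.15 and did not pass. Pde5a averaged 7.14 ± 0.12 in Hdac4HET and 6.85 ± 0.14 in WT mice (SD, n = 9 each), a change of 0.29 (SE 0.06, adjusted p = 0.0151). Pde1b averaged 11.02 ± 0.12 in Hdac4HET and 10.74 ± 0.20 in WT mice, a change of 0.28 (SE 0.07, adjusted p = 0.0384). For each of these 2 genes, 6 of 9 Hdac4HET arrays lay above every WT array. Markers of the striatum, which Pde1b followed within genotypes, had a median change of 0.32 in Hdac4HET against WT mice, with 1 of 16 called higher and array means of 8.08 to 8.66 in Hdac4HET and 7.43 to 8.48 in WT mice. With the mean of these markers as a covariate, the Pde1b change was 0.09 (limma adjusted p = 0.333). The other Pde5a probe sets had changes of 0.17 and −0.03 that did not pass. Pde6d, the member within 10 Mb of Hdac4 on chromosome 1, had changes of 0.10 (adjusted p = 0.131) in Hdac4HET against WT and 0.04 in Dble::R6/2 against R6/2 mice.

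Pde1c moved with the olfactory bulb markers. Of these 14 markers 8 were called higher in Hdac4HET than WT mice, with a median change of 1.17 and array means of 5.09 to 7.23 in Hdac4HET and 5.03 to 5.31 in WT mice. Across the 37 arrays, as deviations from the mean of each genotype, Pde1c and the marker mean had a Pearson r of 0.68 (permutation p = 2e-05, adjusted p = 0.000264) and a Spearman rho of 0.69 (permutation p = 2e-05). Pearson r was 0.55 without the 2 arrays farthest from the median, and within genotypes it was 0.43 in Dble::R6/2, 0.71 in R6/2, 0.91 in Hdac4HET and 0.50 in WT mice. Without the 7 arrays with raised bulb markers, which left 3 Hdac4HET arrays, the Pde1c change was 0.10 (limma adjusted p = 0.85), and that of Pde5a was 0.26 (adjusted p = 0.417). No member was called in Hdac4HET against WT mice without these arrays, nor without the 6 arrays whose sex-linked genes went against the label (Pde1c 0.31, adjusted p = 0.209). Leaving out WT replicate 3 or 6 or Hdac4HET replicate 1, 5, 6 or 7 also ended the call (0.35 to 0.46 over all arrays left out).

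Reduced Hdac4 in mice with the transgene gave no call. Between Dble::R6/2 and R6/2 mice the members' changes lay between −0.23 and 0.09, and none of the 33 passed the adjusted p in limma, against 1.53% of all genes higher and 0.429% lower, or 0.022% and 0.066% with the fold threshold. At an unadjusted p under 0.05, 2 of 33 members passed, against 16.2% of all genes. These were Pde1a (−0.23, 95% interval −0.41 to −0.05, adjusted p = 0.15) and Pde7a (−0.11, adjusted p = 0.164), and the methods' t-test called none. Adcy1 (0.00), Adcy9 (0.00) and Pde7b (0.02) had nearly equal means in Dble::R6/2 and R6/2 mice. Pde10a averaged 9.90 ± 0.12 in Dble::R6/2 (SD, n = 10) and 10.08 ± 0.16 in R6/2 mice (n = 9), a difference of −0.18 (95% interval −0.36 to 0.01, limma adjusted p = 0.325). The intervals of all members lay between −0.41 and 0.21. The median was 0.04 for the members and 0.02 for all genes.

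The interaction, the transgene's change with 1 Hdac4 allele minus its change with both, called no member in limma, against 0.066% of all genes higher and 0.121% lower, or 0.55% and 0.495% on adjusted p alone. At an unadjusted p under 0.05, 7 of 33 members passed, against 19.2% of all genes. Those farthest from 0 were Pde10a (−0.35, 95% interval −0.62 to −0.08, adjusted p = 0.145), Pde1c (−0.35, adjusted p = 0.112) and Pde5a (−0.32, adjusted p = 0.0533). So a difference between the 2 changes of Pde10a, −0.76 and −0.41, was not shown at this number of arrays. The median was 0.01 for the members and 0.02 for all genes. Without Hdac4HET replicate 2, 1 member, Pde1c, was called.

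Several of the members that fell followed markers of the striatum, the tissue next to the dissected cortex. Of 18 striatal markers 16 were measured. In Dble::R6/2 against Hdac4HET mice 13 were lower and none higher, with a median change of −1.02 and array means of 7.23 to 7.86 in Dble::R6/2 and 8.08 to 8.66 in Hdac4HET mice. In R6/2 against WT mice 10 were lower and none higher, with a median of −0.54 and array means of 6.97 to 7.95 in R6/2 and 7.43 to 8.48 in WT mice. Among all genes 4.08% were called lower and 2.6% higher in the first of these comparisons, and 3.3% and 3.75% in the second. Of the other marker lists, 4 of 11 excitatory cortical neuron markers and 4 of 8 inhibitory neuron markers were called lower in Dble::R6/2 against Hdac4HET mice, and 3 of 11 and 2 of 8 in R6/2 against WT mice. Of the oligodendrocyte markers, 3 of 10 and 2 of 10 were called lower. Of the astrocyte markers, 1 of 12 and 0 of 12 were called lower, with medians of −0.26 and −0.28. In Dble::R6/2 against Hdac4HET mice 1 of 10 neuron markers and 1 of 7 choroid plexus markers were called higher. Of the bulb markers, 10 of 14 were called lower in Dble::R6/2 against Hdac4HET mice (median −1.23, array means of 4.87 to 5.84 in Dble::R6/2 and 5.09 to 7.23 in Hdac4HET mice) and 2 of 14 in R6/2 against WT mice (median −0.08). In bulk tissue, fewer cells of a type and less RNA per cell cannot be told apart, and neither can be told from a different share of striatum in the dissected piece.

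The members were set against the striatal and the bulb marker means within genotypes, as deviations from the genotype mean over 37 arrays, which gave 66 relations. Permutations were made within genotypes, were two-sided and could give no p below 1e-05. Adcy5 followed the striatal mean most closely, with a Pearson r of 0.89 (permutation p = 1e-05, adjusted p = 0.000165) and a Spearman rho of 0.89, and within genotypes r was 0.73 in Dble::R6/2, 0.90 in R6/2, 0.94 in Hdac4HET and 0.98 in WT mice. Pde1b had an r of 0.87 (rho 0.85) and Pde7b of 0.82 (rho 0.81), each with the same permutation p. Without the 2 farthest arrays r was 0.87 for Adcy5, 0.82 for Pde1b and 0.76 for Pde7b. Pde10a had an r of 0.60 (permutation p = 0.00038, adjusted p = 0.00418, rho 0.59, 0.51 without the 2 farthest arrays), and it varied between genotypes, at 0.20 in Dble::R6/2, 0.38 in R6/2, 0.97 in Hdac4HET and 0.74 in WT mice. Adcy1 and Pde1a ran the other way, with an r of −0.52 (adjusted permutation p = 0.0101, rho −0.50) and −0.46 (adjusted permutation p = 0.0218, rho −0.41). Adcy9 had an r of −0.14 (permutation p = 0.418, rho −0.26).

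Against the bulb mean, 4 members had a negative relation past an adjusted p of 0.05. Adcy1 had an r of −0.66 (adjusted permutation p = 0.000165, rho −0.80), and it was −0.95 in Hdac4HET and −0.94 in Dble::R6/2 mice. Adcy2, Pde8a and Pde8b had r of −0.55, −0.51 and −0.55 (adjusted permutation p = 0.0114, 0.0111 and 0.0482). Within Hdac4HET mice their r was −0.95, −0.94 and −0.86. In the other genotypes r lay between −0.25 and 0.04 for Adcy2, −0.45 and 0.53 for Pde8a, and −0.52 and 0.33 for Pde8b. Leaving out the arrays with raised bulb markers left 3 Hdac4HET and 9 Dble::R6/2 arrays, so this fit rests on few Hdac4HET mice. In it 6 members were called in Dble::R6/2 against Hdac4HET mice. They were Adcy1 (−0.49), Adcy9 (−0.41), Pde10a (−0.60), Pde1b (−0.44), Pde7b (−0.53) and Pde8a (−0.38). Adcy5 was not called (−0.32, limma adjusted p = 0.0136). The share of all genes called in this fit was not worked out.

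**Figure D4:**
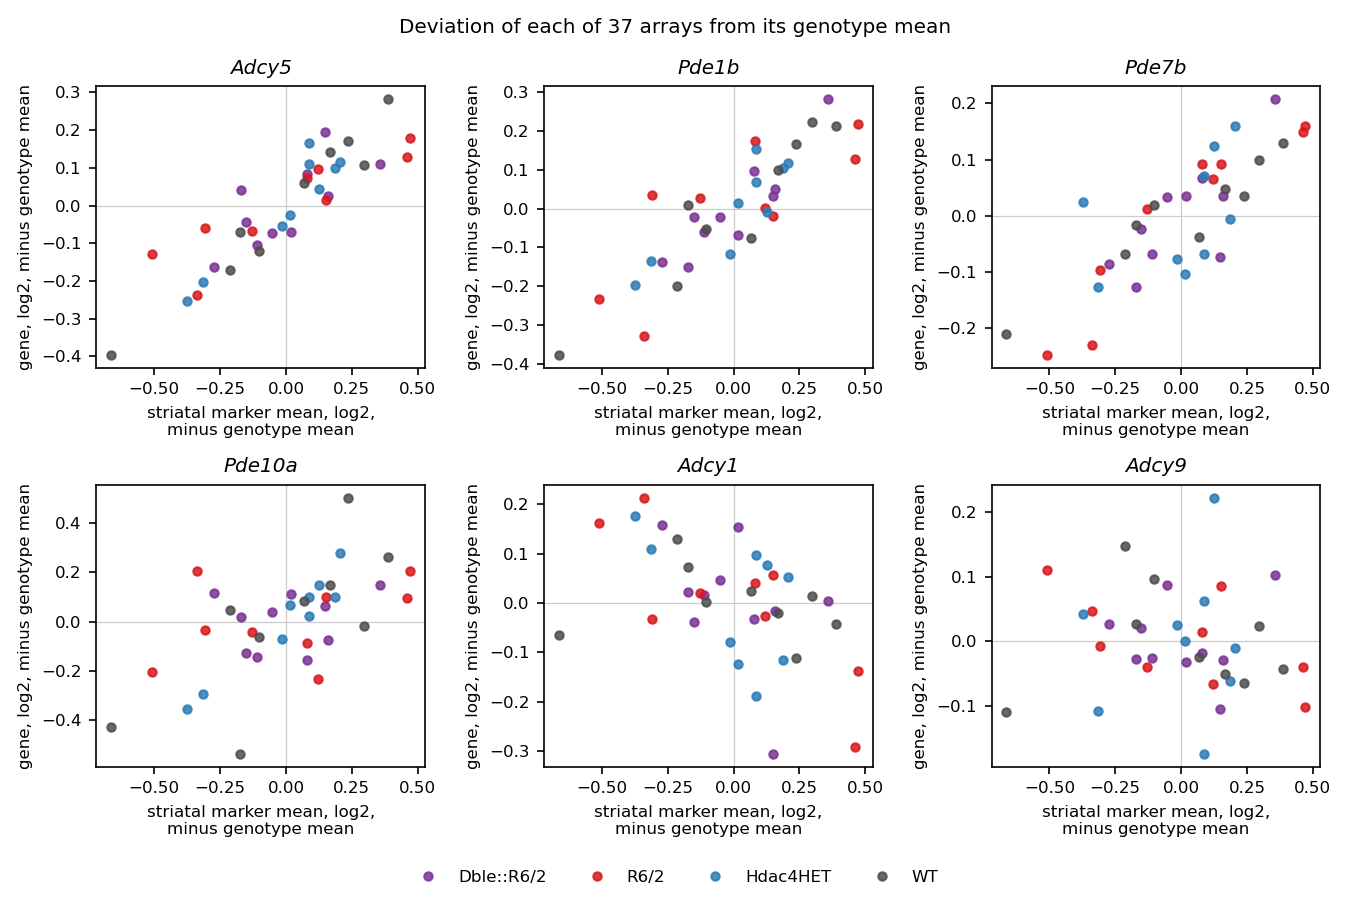
Deviation of 6 members from the mean of their genotype (vertical, log2) against the deviation of the striatal marker mean (horizontal, log2), 1 point per array, 37 arrays. Adcy5, Pde1b and Pde7b rise with the marker mean (r 0.89, 0.87 and 0.82), Pde10a less closely (0.60), and Adcy1 and Adcy9 do not rise (−0.52 and −0.14).

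The striatal mean was also entered as a covariate, a choice made after seeing the data. Since the markers themselves fell with the transgene, this removes whatever change the members share with them, whatever its source. It also enlarges the fall of a member that ran against the markers within genotypes, as Adcy1 (r −0.52) and Pde1a (r −0.46) did. Adcy9 then had changes of −0.41 in Dble::R6/2 against Hdac4HET and −0.41 in R6/2 against WT mice, and Adcy1 of −0.62 and −0.53 (limma adjusted p = 1.88e-08 in R6/2 against WT mice), and both were called. Pde7b was at −0.20 (adjusted p = 0.00366) and −0.19 (adjusted p = 0.000643), past the adjusted p and under 1.3-fold. Pde10a was at −0.31 (adjusted p = 0.0618) and −0.12 (adjusted p = 0.378), Pde1b at −0.07 and −0.03, and Adcy5 at 0.04 and −0.01, none of them called. Pde1a was called lower in both, at −0.64 (adjusted p = 0.000285) and −0.40 (adjusted p = 0.00358), and Pde1c higher in R6/2 than WT mice (0.43, adjusted p = 0.00169). Without the covariate Adcy1 was at −0.40 and −0.39, Pde1a at −0.32 and −0.19, and Pde1c at 0.25 in R6/2 against WT mice.

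The genes around the cyclic nucleotides were taken as 9 lists with 72 measured genes, and limma called none of these in Dble::R6/2 against R6/2 or in Hdac4HET against WT mice. On adjusted p alone, 1 and 2 of them passed in these 2 comparisons. Among all genes 1.53% passed higher and 0.429% lower in the first, and 1.33% and 0.511% in the second. For the interaction 1 passed, against 0.55% and 0.495% of all genes. At an unadjusted p under 0.05, 10 and 13 of the 72 genes passed in the same 2 comparisons, against 16.2% and 19.1% of all genes. All calls named below were lower. Of 10 G protein subunits that act on the cyclases, 2 were called in Dble::R6/2 against Hdac4HET mice and 1 in R6/2 against WT mice. Gnal, the stimulatory subunit of striatal and olfactory neurons, had changes of −0.69 (SE 0.09, limma adjusted p = 1.09e-07) and −0.44 (SE 0.09, adjusted p = 0.000276), and Gng7, its gamma subunit partner in the striatum, of −0.58 (SE 0.10, adjusted p = 5.53e-06) and −0.32 (adjusted p = 0.00848, under 1.3-fold). Of 9 subunits and inhibitors of protein kinase A, 1 and 0 were called, the inhibitor Pkig (−0.54, SE 0.04, adjusted p = 1.55e-12, and −0.27, adjusted p = 9.67e-06). Of 12 anchoring proteins of the kinase, Akap5, which holds it at excitatory synapses, was called in both (−0.46, adjusted p = 4.83e-11, and −0.45, adjusted p = 1.17e-10). The catalytic and regulatory subunits, the 2 exchange factors measured and the 7 cyclic nucleotide-gated and related channels measured had no call.

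Downstream, 4 of 4 phosphoproteins regulated by protein kinase A were lower in both comparisons, with median changes of −0.92 in Dble::R6/2 against Hdac4HET and −0.86 in R6/2 against WT mice. Among all genes 4.08% and 3.3% were called lower in these comparisons. The list was chosen with earlier results of these data known, so setting it against these shares is no test of it. The striatal markers had medians of −1.02 and −0.54, and their part in the fall of the phosphoproteins was not tested. Ppp1r1b, which encodes DARPP-32 and is also one of the striatal markers, had changes of −1.39 (adjusted p = 1.16e-10) and −1.21 (SE 0.14, adjusted p = 4.62e-09), and Arpp19 of −1.0 in both. Of 12 known targets of CREB, 9 and 8 were called, with medians of −0.51 and −0.50. Crh, the stress neuropeptide, had changes of −1.27 and −1.31 (SE 0.10, adjusted p = 1.12e-13 in R6/2 against WT mice). Sst, the peptide of a class of interneurons and also one of the inhibitory neuron markers, had changes of −0.86 and −1.02 (SE 0.05, adjusted p = 1.3e-17). Of the 7 genes measured of the CREB family and its coactivators none was called, and their medians were 0.12 and 0.29. Of 9 genes of cyclic GMP signalling 1 was called in each, the guanylyl cyclase subunit Gucy1a1 in Dble::R6/2 against Hdac4HET mice (−0.38, SE 0.05, adjusted p = 4.34e-07) and the nitric oxide synthase Nos1 in R6/2 against WT mice (−0.51, SE 0.08, adjusted p = 3.44e-06).

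**Figure D5:**
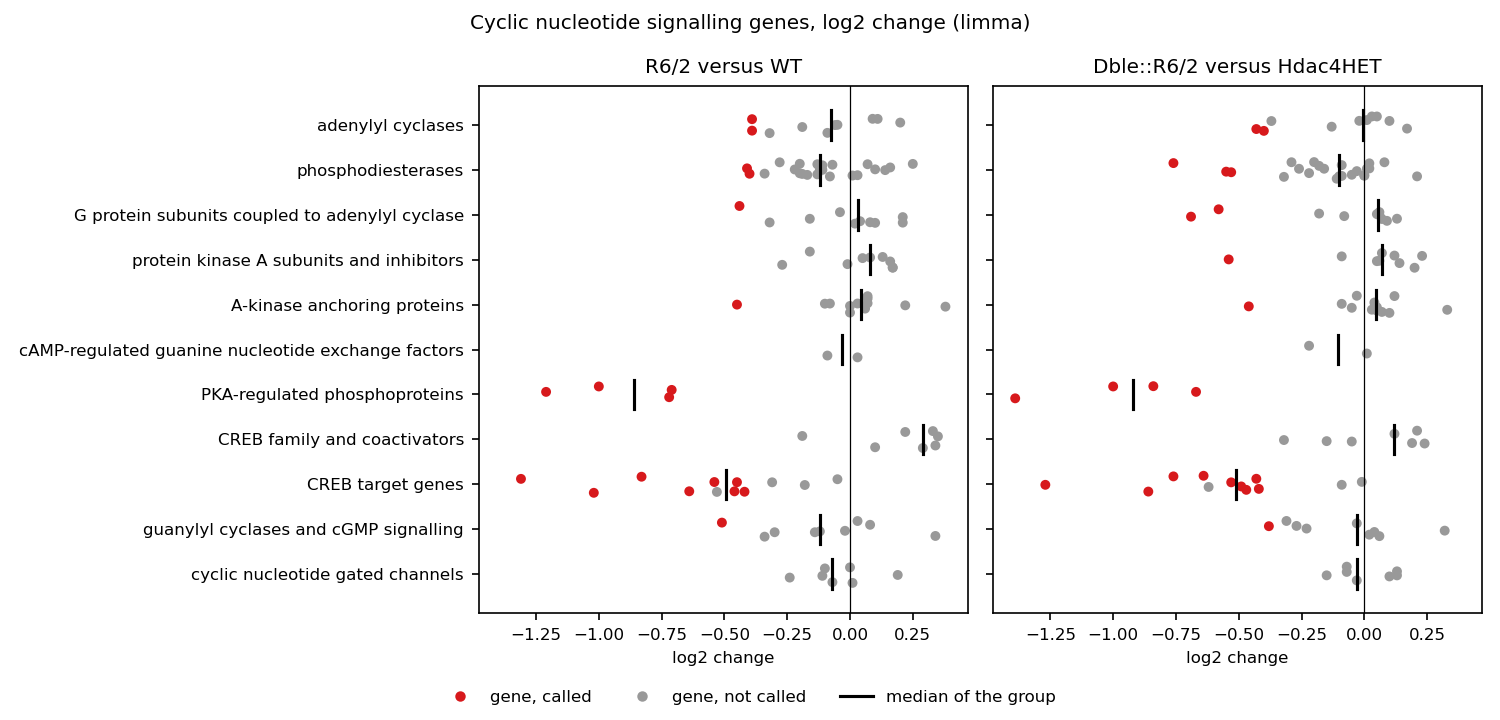
Log2 change of the 33 members and of the genes of 9 related lists, 1 point per gene, for R6/2 against WT and Dble::R6/2 against Hdac4HET, with a black line at the median of each list. The phosphoproteins of protein kinase A lie lowest (medians −0.86 and −0.92), and the CREB family lies above 0 (0.29 and 0.12).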

How the data were processed

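Cortex RNA of 37 mice was measured on Affymetrix arrays, and groups, sexes and replicate numbers came from the labels. The authors deposited 1 table of log2 values, used here without further normalization. The summarisation of probes was not given in the sources used here. Per the methods, RACE served for quality control and some arrays, not named, were excluded, so all 37 were kept. Nothing in the labels gives litters. Precision is limited by the number of arrays.

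Of 45037 probe sets, 34945 had 1 symbol in the platform annotation, 932 several and 9160 none. A linear model of the 4 genotypes was fitted with limma 3.58.1 in R 4.3.3 (lmFit, eBayes with a trend), with Benjamini-Hochberg adjustment over all probe sets. It was tested on simulated data with 200 changed probe sets. There 52% to 72% of changes of 0.4 on the log2 scale were called, depending on the comparison, and 96% to 98% of changes of 1. So changes near the fold threshold can be missed. Every adjusted p beside a change comes from the limma model. Relations and figures used Python 3.11.15 and matplotlib 3.10.9, with 100000 permutations. Alternatives were another normalization, filter, probe-set choice, test, covariate or block, and leaving out single arrays. The members, gene lists and marker lists were chosen with earlier results of these data known. Every member is named. Called members are given per genotype and the others by class, and up to 3 called genes are named per related list. Pde4c was not analysed here.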

Additional observations from a re-analysis of the deposited data

Results flagged for a closer look

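Adcy1 in Dble::R6/2 replicate 10 had a log2 value of 11.44, apart from the other 9 arrays of its genotype, of which the nearest had 11.7. The gap was 0.58 of the whole range of the genotype. This was 1 of the 28 groups of arrays looked at, 7 genes in 4 genotypes, and chance singles out about 1 in 20 such groups. The same array is the one of Dble::R6/2 with raised olfactory bulb markers, and without it Adcy1 was not called in Dble::R6/2 against Hdac4HET mice (−0.37). The part of the bulb markers in this value was not tested.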

How the results depend on the processing

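The number of members called was the same as reported in all 5 comparisons under quantile normalization, with only probe sets above the median level, with sex as a covariate, with array quality weights and without probe sets ending in _x_at or _s_at. With no fold threshold it was 18 in Dble::R6/2 against Hdac4HET mice, 18 in R6/2 against WT mice and 3 in Hdac4HET against WT mice. With falls read as below 0.7 it was 3 and 0 in the 2 comparisons of the transgene. In Hdac4HET against WT mice it was 0 with only the genotypes compared, with the methods' t-test, with the mean of a gene's probe sets, without the arrays with raised bulb markers, without the arrays whose sex-linked genes went against the label, and with the striatal mean as a covariate. With that covariate it was 3 in Dble::R6/2 against Hdac4HET mice, where Adcy5 turned from −0.43 to 0.04 (limma adjusted p = 0.667). The cause was not tested. Leaving out each of the 37 arrays in turn gave 4 to 6 in Dble::R6/2 against Hdac4HET mice, 2 to 5 in R6/2 against WT mice, 0 to 1 in Hdac4HET against WT mice and 0 to 1 for the interaction. Dble::R6/2 against R6/2 mice gave 0 throughout. With the replicate block the counts were 4 in Dble::R6/2 against Hdac4HET mice, where Adcy1 was at −0.37, and 4 in R6/2 against WT mice, 1 in Hdac4HET against WT mice, 0 in Dble::R6/2 against R6/2 mice and 0 for the interaction. Whether the numbers pair the mice is not known from the labels. Of 54 same-numbered pairs 12 had deviations correlated above 0.1 (−0.27 to 0.22), which cannot settle it. Changes near 1.3-fold and dim probe sets are where these arrays limit the calls.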
